A study of Macaca mulatta with 24 samples.

Results

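Neurotrophins are secreted growth factors of neurons, and the 4 members of their ligand and receptor family measured here were BDNF, NTF3, NTRK3 and NGFR. They were chosen by name, as the probe sets that the platform annotation assigns to 1 of 6 listed symbols. 4 of these 6 genes had a probe set, among 14132 distinct symbols in all: BDNF had 3 probe sets, NTF3 had 1, NTRK3 had 4 and NGFR had 2. NTRK2, the main receptor of BDNF, and SORT1, the sortilin that binds the precursor forms of the ligands, were assigned no probe set by the annotation used here and were not analysed here. Of the 10 probe sets, 9 reached a signal of 100 in at least 1 array and were tested, and 1 of the NGFR probe sets, whose name has the prefix Mmu, did not.

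The signals came from the lateral geniculate nucleus (LGN) of 2 infant rhesus macaques whose left eye was deprived of vision from birth. In 1 animal the lids were closed by tarsorrhaphy for 4 months, and in the other an opaque contact lens was worn for 2 months, so that duration, age, method and animal cannot be told apart. All 6 layers of both LGNs of each animal were cut out by laser capture, giving 24 arrays: deprived parvocellular (8), deprived magnocellular (4), nondeprived parvocellular (8) and nondeprived magnocellular (4) layers. Layers 2, 3 and 5 of the LGN on the side of the deprived eye and layers 1, 4 and 6 of the opposite LGN were the deprived ones. The nondeprived layers are layers of the same deprived animals, and arrays of normally reared animals were not used here. Each array holds the pooled sections of 1 layer, so p-values measure the spread between layers of 4 LGNs and not the spread between animals.

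BDNF acts mainly through the receptor kinase NTRK2 (TrkB), and NTF3, or neurotrophin-3, mainly through the receptor kinase NTRK3 (TrkC). NGFR, the p75 receptor, binds all neurotrophins and their precursors and can act with or against the Trk receptors. In the visual system BDNF is known as an activity-regulated gene and as a factor carried along axons between retina, thalamus and cortex. Parvocellular and magnocellular layers hold relay neurons of different size and visual response, driven by separate classes of retinal ganglion cells. The signal is a linear intensity in arbitrary units that was scaled on each array to a trimmed mean of 500.04, and no level of one probe set is set against another.

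The summed signals of 3 markers of neurons and of 2 markers of relay neurons were high on every array. The sum of the 2 relay neuron markers lay between 43190 and 69613 in parvocellular layers and between 48471 and 71043 in magnocellular layers. Of 3 relay neuron markers with a probe set, only these 2, TCF7L2 and PVALB, were tested. The other reached a signal of 100 on no array. Neither of the listed vesicular glutamate transporters, SLC17A6 and SLC17A7, was tested. The single measured marker of koniocellular neurons, the cells between the layers, was CAMK2A. Its median signal was 15.1 in parvocellular and 23.5 in magnocellular layers, and its highest was 175 in a deprived magnocellular layer. A probe set with signals this low cannot show how many of these cells were captured. The array of the ipsilateral deprived layer 2 of the 2-month animal stood apart: its 3′ to 5′ ratio of GAPDH, a sign of RNA length, was 50.8 against 1.97 to 14.3 on the other arrays, and its mean correlation with the other arrays was 0.811 against 0.885 to 0.919. Class differences whose call was lost without it are given with and without it. Other results in magnocellular layers include it unless stated. In tissue of this kind fewer cells of a type and less RNA per cell cannot be told apart.

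Among the member probe sets tested, an NTRK3 probe set differed most clearly between the layer classes. The probe set MmugDNA.33101.1.S1_s_at of this neurotrophin-3 receptor had signals between 1703 and 4596 (median 2615) in the 16 parvocellular arrays, against signals between 851 and 2698 (median 1512) in the 8 magnocellular arrays. In each of the 4 LGNs, all parvocellular layers lay above both magnocellular layers, as for 0.229% of all probe sets tested, although the 2 classes overlapped when the animals were pooled. The mean was 2979 ± 997 in parvocellular layers (SD, n = 16) and 1624 ± 630.0 in magnocellular layers (SD, n = 8). The log2 difference was 0.90 (SE 0.11), a 1.86-fold higher signal in parvocellular layers (95% interval 1.58 to 2.19), with an adjusted p of 1.86e-05 by limma. Over all 37623 probe sets tested, 3.6% were called in this comparison, 2.25% as higher and 1.35% as lower in parvocellular layers.

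The separation of the classes was seen in both animals at different levels. At 4 months the means of this NTRK3 probe set were 2239 in parvocellular and 1085 in magnocellular layers of the ipsilateral LGN, and 2138 in parvocellular and 1169.7 in magnocellular layers of the contralateral LGN. At 2 months they were 4243 in parvocellular and 2473 in magnocellular layers of the ipsilateral LGN, and 3296 in parvocellular and 1768 in magnocellular layers of the contralateral LGN. The 8 parvocellular arrays of the 4-month animal therefore overlapped with the magnocellular arrays of the 2-month animal, and the classes separate within an LGN. The log2 difference was 0.97 in the 4-month animal alone and 0.83 in the 2-month animal alone. The adjusted p of the difference was 0.0142 in the 4-month animal and 0.0320 in the 2-month animal.

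**Figure D1:**
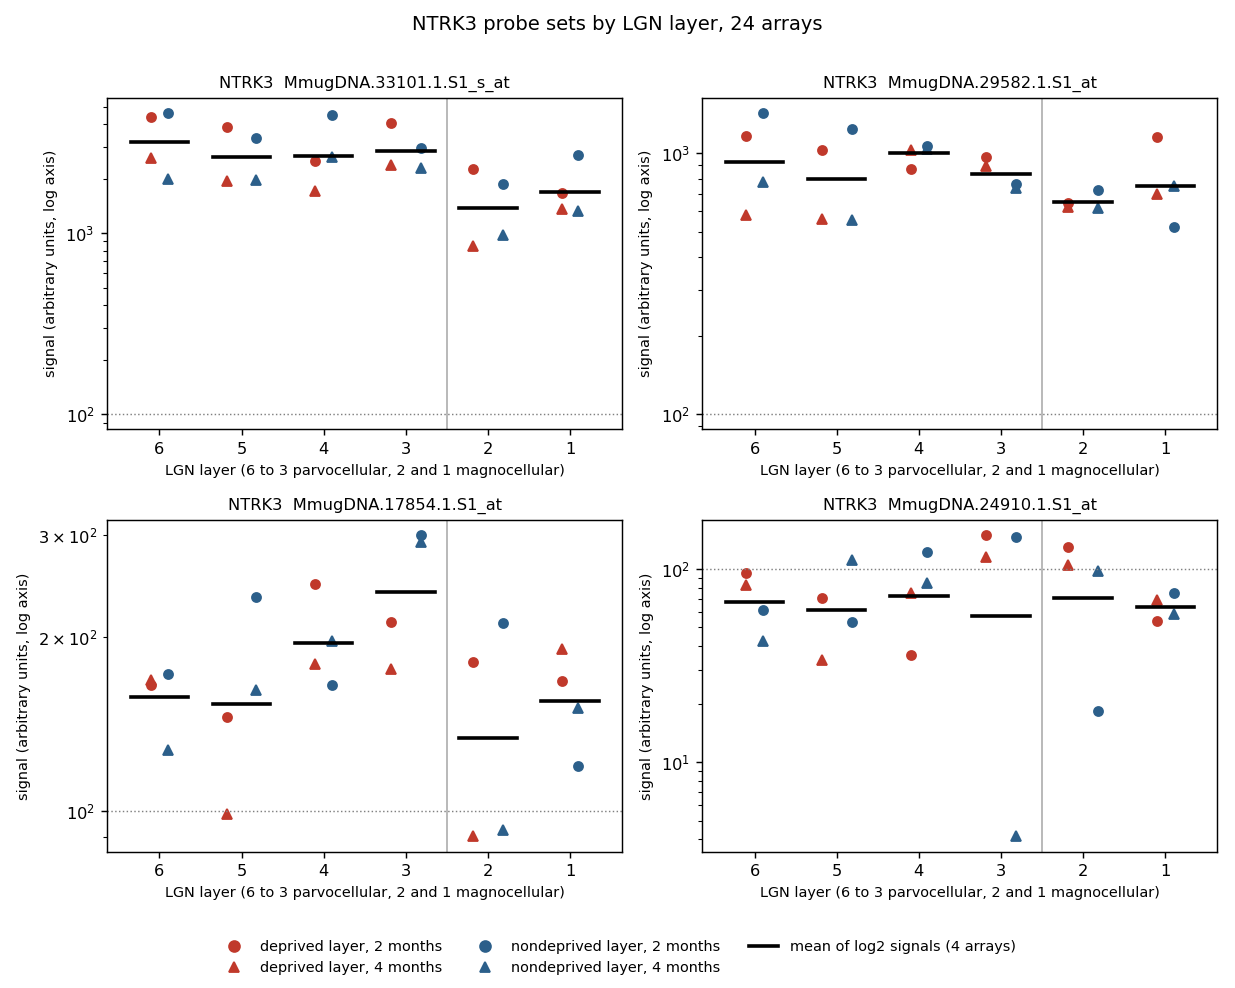
Signal (log axis, arbitrary units) of 4 NTRK3 probe sets in each LGN layer, with parvocellular layers 6 to 3 left of magnocellular layers 2 and 1; each point is 1 array, red for deprived and blue for nondeprived layers, circles for the 2-month and triangles for the 4-month animal, black bars the mean of 4 log2 signals, and the dotted line a signal of 100. For MmugDNA.33101.1.S1_s_at the bars of layers 6 to 3 lie above those of layers 2 and 1, and red and blue points are mixed in both classes.

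Across single layers the same probe set was ordered, by mean log2 signal, layer 6 (mean signal 3394), layer 3 (2916), layer 4 (2832), layer 5 (2775), layer 1 (1760.1) and layer 2 (1488), with 4 arrays each. A difference among the 6 layers was called for this probe set alone of the 9 (adjusted p = 0.00137 by the limma F test), where 0.758% of all probe sets were called. No pair of neighbours in this order passed the test, and the step across the class border, layer 5 against layer 1, had an adjusted p of 0.130 by limma. Of the 15 pairs of layers, 5 passed, where between 0.431% and 0.861% of all probe sets were called. Layer 6 exceeded layer 2 by 1.22 and layer 1 by 0.92 on the log2 scale (SE 0.18 each; limma adjusted p 0.00089 and 0.0149). Layers 3, 4 and 5 exceeded layer 2 by 1.05, 0.96 and 0.95. Within a class 0% of all probe sets were called in any pair of layers, NTRK3 included. Layer 1 minus layer 2 was 0.30 for this probe set (95% interval -0.36 to 0.95). The call over 6 layers was lost without the LGN as a block and in each animal alone.

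The other 3 NTRK3 probe sets did not pass the class comparison. MmugDNA.29582.1.S1_at had signals between 557 and 1424 (median 934) in parvocellular layers and between 523 and 1158 (median 669) in magnocellular layers. Its log2 difference was 0.34 (SE 0.15, limma adjusted p 0.256), and the parvocellular mean was the higher in 4 of 4 LGNs. MmugDNA.17854.1.S1_at had signals between 98.7 and 299 in parvocellular layers and between 90.3 and 211 in magnocellular layers, a log2 difference of 0.35 (SE 0.18, limma adjusted p 0.355), again with the higher parvocellular mean in 4 of 4 LGNs. These 2 ran in the same direction as the called probe set in each LGN, with smaller differences. Their layers overlapped within each LGN, except in 1 LGN for MmugDNA.29582.1.S1_at. The share of all probe sets with the same sign in 4 of 4 LGNs was not worked out, here or for the BDNF probe sets below. The fourth, MmugDNA.24910.1.S1_at, lay near the low end of the scale, with signals between 4.14 and 149 in parvocellular layers and between 18.5 and 130 in magnocellular layers and a log2 difference of -0.06 (SE 0.46). NTRK3 is known to give a full-length kinase and shorter forms without the kinase domain, and which forms each probe set reads was not worked out here.

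The NTRK3 probe sets followed one another only in part. After the mean of each LGN was taken out, the Pearson r over 24 arrays was 0.50 between MmugDNA.33101.1.S1_s_at and MmugDNA.17854.1.S1_at, 0.46 between the first and MmugDNA.29582.1.S1_at, and -0.06 between the first and MmugDNA.24910.1.S1_at. These arrays share LGNs, scaling and layer class, so the coefficients are descriptions. The genes whose signals were most like MmugDNA.33101.1.S1_s_at by this measure were DMKN (r = 0.89), CDKN1A (r = 0.89) and ANKS1B (r = 0.88), among 13738 candidate probe sets over 24 arrays. For MmugDNA.29582.1.S1_at they were PRPSAP1 (0.87), YWHAQ (0.81) and CNP (0.80), and for MmugDNA.17854.1.S1_at they were RGS19 (0.83), PCK2 (0.79) and GPS1 (0.76). The 3 lists share no gene.

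A called BDNF probe set ran the other way, with lower signals in parvocellular than in magnocellular layers. The probe set MmuSTS.1378.1.S1_at had signals between 26.3 and 157 (median 61.3) in the 16 parvocellular arrays, of which 3 reached 100. In the magnocellular layers the 4 deprived arrays had signals of 402, 168, 91.2 and 82.9, and the 4 nondeprived arrays had 202, 134, 107 and 91.4, so that 5 of 8 reached 100. The magnocellular mean was the higher in 4 of 4 LGNs, and the layers did not overlap in 3 of them, a pattern that 0.662% of all probe sets tested had in 3 or more LGNs. The exception was the ipsilateral LGN at 4 months, where the deprived layer 3 had a signal of 157. The mean was 69.4 ± 41.5 in parvocellular (SD, n = 16) and 159.9 ± 106 in magnocellular layers (SD, n = 8). The log2 difference was -1.24 (SE 0.34, 95% interval -1.94 to -0.54), and it passed the threshold narrowly (limma adjusted p 0.0388).

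This BDNF call was not stable. It was lost when 1 of 14 of the 24 arrays was left out, with the log2 difference between -1.40 and -1.02 and the limma adjusted p between 0.00689 and 0.108 over all 24 omissions. The largest loss came without the array that stood apart, the deprived layer 2 with the signal of 402, which gave -1.02 and an adjusted p of 0.108. The other magnocellular arrays whose omission ended the call were the ipsilateral nondeprived layer 1 of the 4-month animal (0.0978) and the nondeprived layers 2 of the contralateral LGNs at 4 months (0.0722) and at 2 months (0.0866). Leaving out 10 parvocellular arrays in turn gave adjusted p-values from 0.0501 to 0.0616. These were, at 4 months, layers 4, 5 and 6 of the ipsilateral and layers 3, 4 and 5 of the contralateral LGN, and, at 2 months, layers 3, 4 and 6 of the ipsilateral and layer 4 of the contralateral LGN. Once the GAPDH ratio was added to the fit, the difference was -1.08 (adjusted p 0.208). The median GAPDH ratio was 4.82 in parvocellular and 6.14 in magnocellular arrays, and its part in the result is given only by that fit.

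The remaining BDNF probe sets were mostly below a signal of 100. MmugDNA.24032.1.S1_at had signals between 4.58 and 81.3 in parvocellular layers and between 9.64 and 114 in magnocellular layers, and its parvocellular mean was the lower in 4 of 4 LGNs (log2 difference -1.20, SE 0.58, limma adjusted p 0.310). MmugDNA.42959.1.S1_at had signals between 8.56 and 36.3 in parvocellular layers and between 7.65 and 157 in magnocellular layers (log2 difference -0.39, SE 0.42). Each of them was tested only because 1 magnocellular array reached 100. That array was the one that stood apart for MmugDNA.42959.1.S1_at, and without it the log2 difference was -0.08. By mean log2 signal MmuSTS.1378.1.S1_at was ordered layer 2, layer 1, layer 3, layer 6, layer 5 and layer 4. Layer 4 differed from layer 2 by -2.02 on the log2 scale (SE 0.55), and neither this pair (limma adjusted p 0.111) nor any other pair of layers passed.

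**Figure D2:**
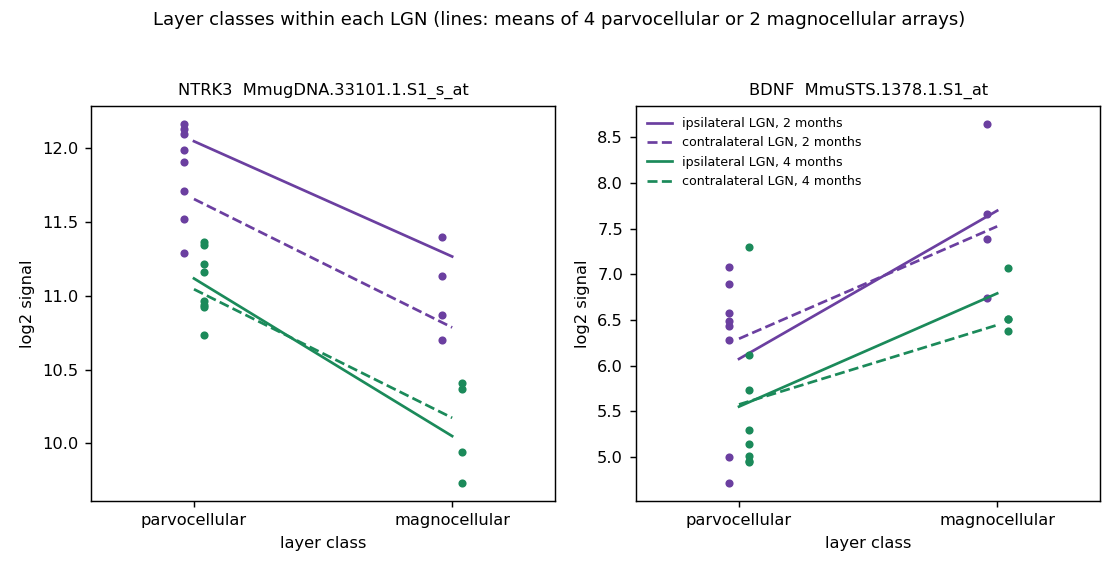
Log2 signal of the called NTRK3 (left) and BDNF (right) probe sets in parvocellular and magnocellular layers; points are arrays, and each line joins the class means of 1 of 4 LGNs, purple for the 2-month and green for the 4-month animal. All 4 lines run down from parvocellular to magnocellular layers for NTRK3 and up for BDNF, and the highest BDNF point is the array that stood apart.

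NTF3, the ligand of NTRK3, showed no class difference that passed the test. Its probe set had signals between 11.2 and 142 (median 41.8) in parvocellular layers, and between 6.87 and 136 (median 40.6) in magnocellular layers. The signal reached 100 in 2 of 16 parvocellular and 1 of 8 magnocellular arrays, and the log2 difference was 0.44 (SE 0.43, 95% interval -0.44 to 1.33, limma adjusted p 0.668). The interval leaves room for a difference of either sign.

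NGFR was likewise low and without a called class difference. MmugDNA.11249.1.S1_at had signals between 22.6 and 127 (median 66.8) in parvocellular layers and between 24.1 and 104 (median 54.2) in magnocellular layers, with a log2 difference of 0.21 (SE 0.26, limma adjusted p 0.747). The NGFR probe set that was not tested had a median of 13.2 in parvocellular and 8.16 in magnocellular layers, and its highest signal was 71.5. Of the 9 tested probe sets, 2 were called between the classes, 1 in each direction, and 5 of 9 had a positive difference. Their median log2 difference was 0.21, against -0.03 over all probe sets tested.

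**Figure D3:**
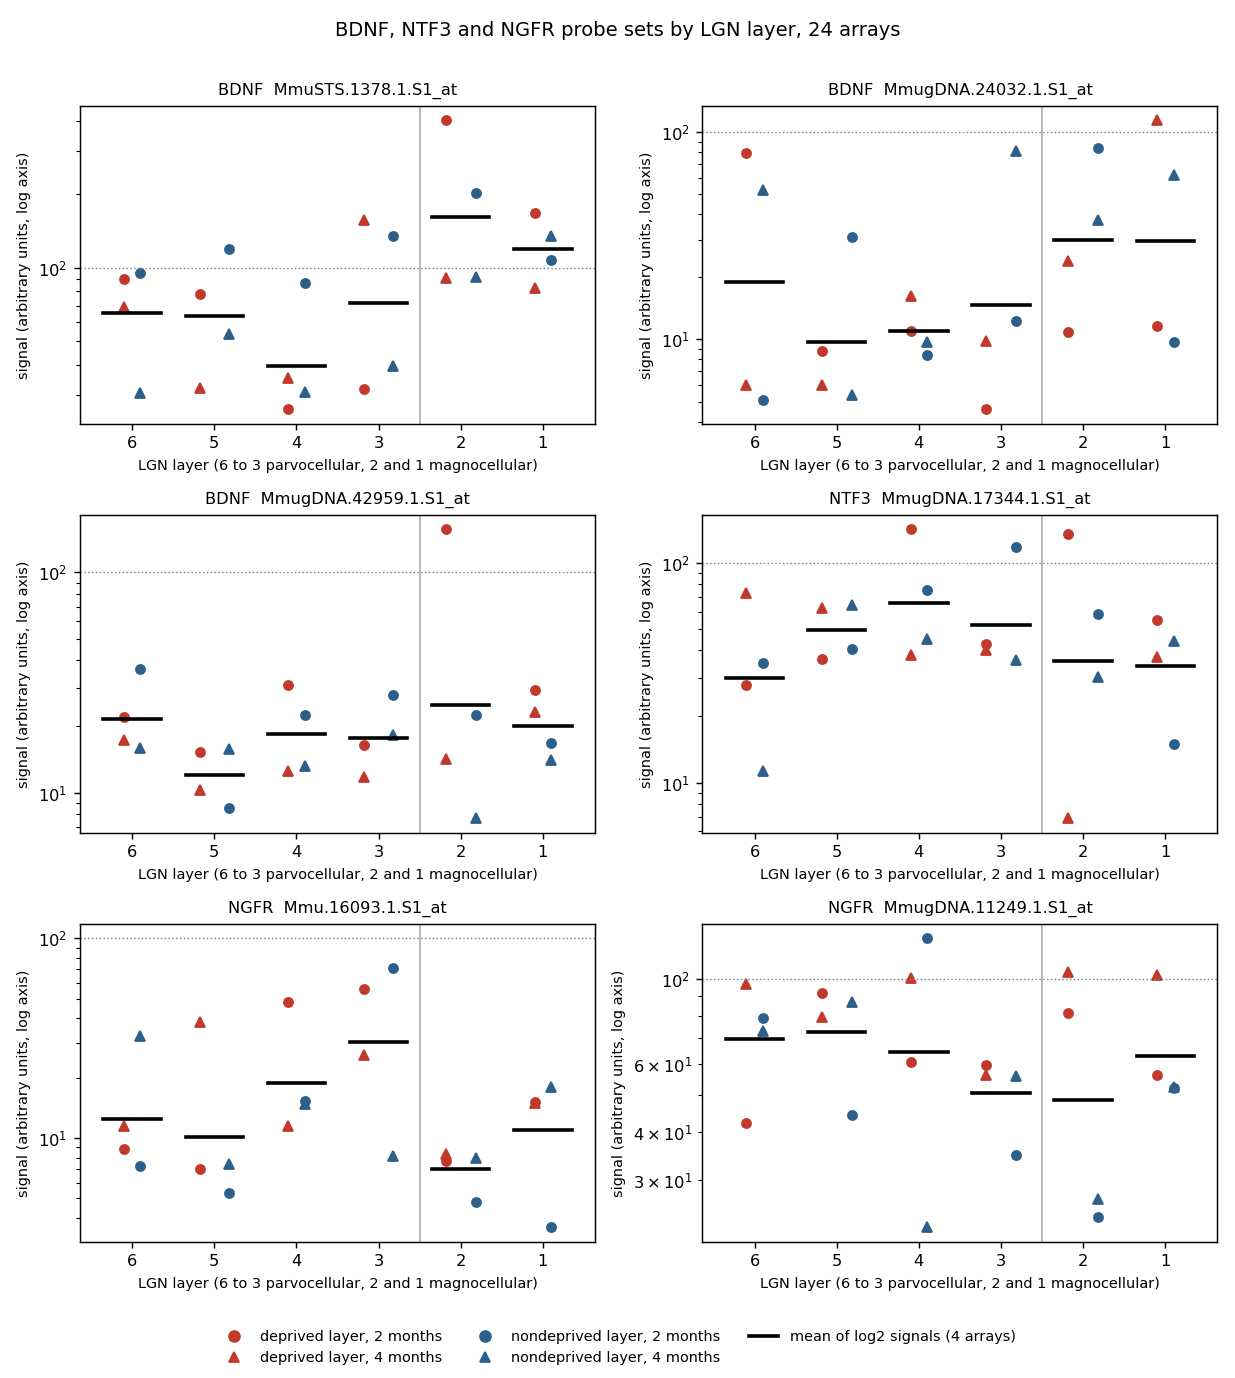
Signal (log axis, arbitrary units) of 3 BDNF, 1 NTF3 and 2 NGFR probe sets in each LGN layer, drawn as for NTRK3: parvocellular layers 6 to 3 left of magnocellular layers 2 and 1, red deprived and blue nondeprived, circles 2 months and triangles 4 months, black bars the mean of 4 log2 signals, dotted line a signal of 100. Most points lie below 100, and BDNF MmuSTS.1378.1.S1_at has its highest bars in layers 2 and 1.

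Markers of other cells that moved with the layer class were looked up beside these results. Of 2 measured markers of GABAergic neurons, GAD1, a GABA-synthesizing enzyme, was called lower in parvocellular layers (log2 difference -0.56, limma adjusted p 0.00213). GAD2, the other such enzyme, had a difference of the opposite sign (0.40, adjusted p 0.376), and the average of the 3 GAD1 probe sets was not called (-0.20, adjusted p 0.511). The sum of both markers ranged between 9296 and 16045 in parvocellular and between 14408 and 24464 in magnocellular layers. No marker of astrocytes (5), oligodendrocytes (2), microglia (5) or vessels (3) was called between the classes. The part of the GABAergic markers in the NTRK3 and BDNF differences was not tested.

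Deprivation changed none of the 9 probe sets past the threshold in the parvocellular layers. Over all probe sets 0.97% were called there, 0.585% as higher and 0.385% as lower in deprived layers, and the lowest adjusted p of a member was 0.743 by limma. For NTRK3 MmugDNA.33101.1.S1_s_at the signals lay between 1703 and 4385 (median 2550.5) in deprived layers and between 1965 and 4596 (median 2787) in nondeprived layers. The groups overlapped over nearly their whole range. The log2 difference was -0.06 (SE 0.12), and its 95% interval, -0.31 to 0.20, corresponds to a ratio between 0.80 and 1.15.

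For BDNF MmuSTS.1378.1.S1_at the signals lay between 26.3 and 157 (median 52.3) in deprived and between 30.6 and 135 (median 70.0) in nondeprived parvocellular layers, a log2 difference of -0.23 (SE 0.42). Its interval, -1.11 to 0.64, is much wider than that of NTRK3. The estimates of the other members ran between -0.52 for BDNF MmugDNA.24032.1.S1_at and 0.40 for NTRK3 MmugDNA.24910.1.S1_at. The median over the 9 was -0.08, against -0.01 over all probe sets tested.

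**Figure D4:**
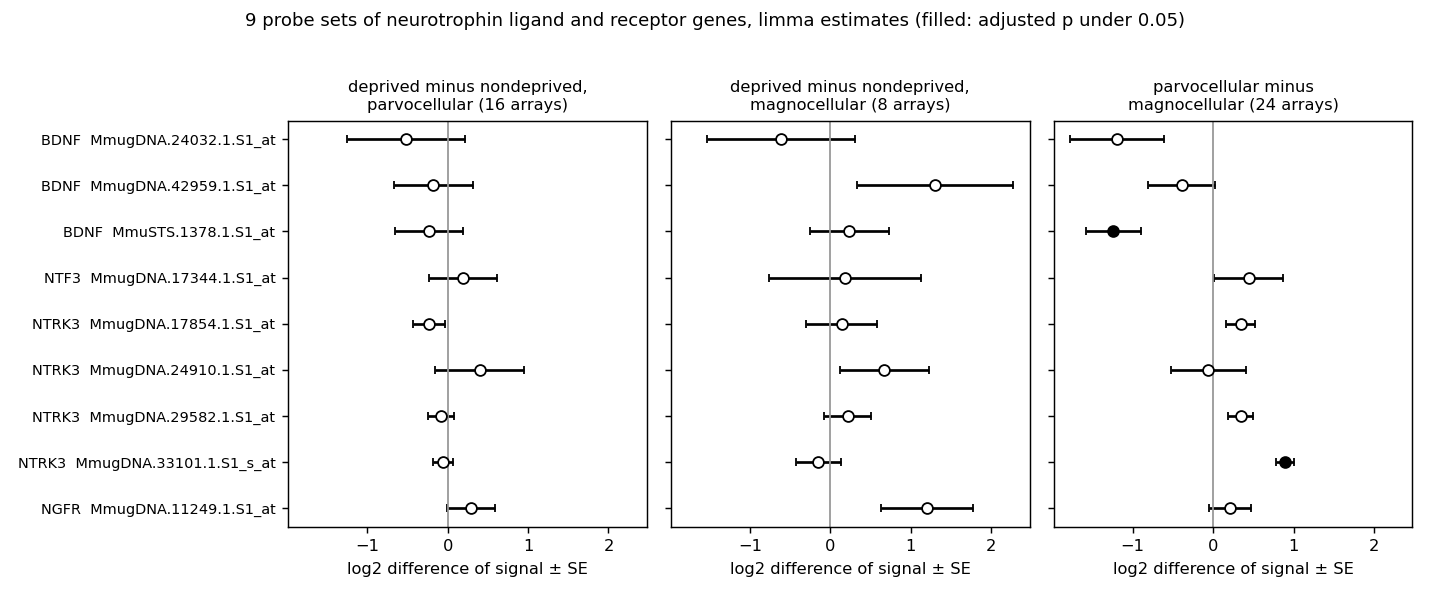
Log2 differences of signal with their SE for the 9 tested probe sets: deprived minus nondeprived in parvocellular layers (left) and in magnocellular layers (middle), and parvocellular minus magnocellular layers (right). Filled points passed the limma adjusted p of 0.05, which were NTRK3 MmugDNA.33101.1.S1_s_at (0.90) and BDNF MmuSTS.1378.1.S1_at (-1.24) between the classes and none for deprivation.

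In the magnocellular layers no probe set of the array was called for deprivation (0% of 37623 by limma, with 2138 at an unadjusted p under 0.05), so none of the members could be. NGFR MmugDNA.11249.1.S1_at had signals of 104, 103, 81.7 and 56.2 in the 4 deprived layers, against 52.2, 52.1, 26.7 and 24.1 in the 4 nondeprived layers. The groups did not overlap, and the deprived layer was the higher in 4 of 4 LGNs. Of these 8 signals 2 reached 100, both in deprived layers, and the authors treated lower levels as possibly within background noise. Of all probe sets tested, 2.78% had 4 deprived magnocellular layers above all 4 nondeprived ones and 1.29% had them all below. The summed signal of the 2 GABAergic markers also did not overlap, at 18450 to 24464 in deprived and 14408 to 16724 in nondeprived magnocellular layers, and its part in the NGFR difference was not tested. The log2 difference was 1.20 (SE 0.57), with a 95% interval of -0.06 to 2.47, an unadjusted p of 0.0603 and an adjusted p of 0.836 by limma. Without the array that stood apart it was 1.39. In parvocellular layers the same probe set differed by 0.29 (SE 0.30). The difference between the classes in this effect was -0.92 (SE 0.52, limma adjusted p 0.764).

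BDNF MmugDNA.42959.1.S1_at also had the higher signal in the deprived magnocellular layer in 4 of 4 LGNs, with 157, 29.4, 23.2 and 14.3 in deprived and 22.6, 16.9, 14.1 and 7.65 in nondeprived layers. The groups overlapped, and the value of 157 came from the array that stood apart. The log2 difference was 1.30 (SE 0.97, limma adjusted p 0.846), and it was 0.67 without that array. NTRK3 MmugDNA.33101.1.S1_s_at had 2248, 1665, 1358 and 851 in deprived and 2698, 1870.4, 1320 and 982 in nondeprived magnocellular layers, a log2 difference of -0.15 (95% interval -0.76 to 0.47). The median log2 difference of the 9 was 0.22, against 0.13 over all probe sets tested.

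Neither class nor duration changed the effect of deprivation on a member past the threshold. Over all probe sets 0% were called in each of these 3 comparisons by limma, with 2540 (classes), 1465 (durations, parvocellular) and 467 (durations, magnocellular) at an unadjusted p under 0.05. The lowest unadjusted p among the members was that of BDNF MmuSTS.1378.1.S1_at between durations in parvocellular layers. Its effect was larger at 4 than at 2 months by 1.79 on the log2 scale (SE 0.76, 95% interval 0.20 to 3.37, unadjusted p 0.0291, adjusted p 0.973 by limma). The deprived minus nondeprived difference was 1.21 and 0.11 in the ipsilateral and contralateral LGN at 4 months, and -0.87 and -1.38 at 2 months. Both LGNs of an animal thus had the same sign and the animals had opposite signs. For NTRK3 MmugDNA.33101.1.S1_s_at the difference between classes was 0.09 (SE 0.23) and that between durations was 0.01 (SE 0.25) in parvocellular layers.

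Within the parvocellular class no probe set was called between the outer layers 5 and 6 and the inner layers 3 and 4 (0% by limma, 3377 at an unadjusted p under 0.05). NTRK3 MmugDNA.17854.1.S1_at had the lowest p among the members, with a log2 difference of -0.48 (SE 0.16, unadjusted p 0.00899, adjusted p 0.521). The called NTRK3 probe set differed by 0.08 (SE 0.12) between outer and inner layers.

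Other genes of neurotrophin signaling were followed in a list of 121, of which 87 had a probe set and 85 were tested, each through the 1 of its probe sets whose log2 signals had the highest mean. Between the classes 9 were called higher and 1 lower in parvocellular layers, 11.8% of the 85 beside the 3.6% of all probe sets. These shares are not of like probe sets, since each gene stands by its strongest one: among all probe sets of the array whose signal averaged at least 100, 7.13% were called. When all probe sets of a gene were averaged, 5 were higher and 1 was lower (7.06%), and they were partly other genes. RPS6KA2, SLITRK5, FOS and NPTX2 (higher) and SLITRK1 (lower), with 1 probe set each, were called both ways. NR4A1, an immediate early transcription factor, was called only as an average (log2 difference 0.77, limma adjusted p 0.0316). SORL1 (0.203), RPS6KA5 (0.693), PTPRS (0.0890), CREB1 (0.201) and MEF2A (0.823) were not called as averages, with the adjusted p in parentheses. No such average was worked out for NTRK3 or BDNF, whose class calls rest on single probe sets. The median log2 difference of the list was 0.05, against -0.03 over all probe sets tested. The called genes came from 5 of 10 roles, and no adaptor (14 tested), NGFR partner (10), member of the PI3 kinase and phospholipase branch (11) or processing gene (4) was called. NTF4, the single other neurotrophin tested, had a log2 difference of -0.31 (limma adjusted p 0.801). Without the LGN as a block RPS6KA5 alone of the 10 was called, and the adjusted p of the others ranged between 0.0531 for SORL1 and 0.192 for MEF2A.

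Among relatives of the receptors, SORL1, a sorting receptor of the sortilin family, averaged 7256 ± 1415 in parvocellular layers (SD, n = 16) and 4887 ± 1758 in magnocellular layers (SD, n = 8), a log2 difference of 0.66 (limma adjusted p 0.00356). It was 0.41 in the 4-month animal alone and 0.91 in the 2-month animal alone. The SORL1 call was lost in 2 alternatives, with a limma adjusted p up to 0.235, and with no single array left out. The average of its 2 probe sets differed by 0.37 and was not called. In the Ras and MAP kinase branch, RPS6KA5, a kinase that phosphorylates CREB and histones, averaged 902 ± 302 in parvocellular and 479 ± 211 in magnocellular layers, a log2 difference of 0.96 (limma adjusted p 8.51e-06). This call was kept with each array left out and in each animal alone, but not when the 3 probe sets of RPS6KA5 were averaged (0.23, adjusted p 0.693). RPS6KA2, a ribosomal S6 kinase of the same branch, was higher by 0.43 (limma adjusted p 0.0325). That call was lost when 1 of 10 arrays was left out, with adjusted p-values up to 0.0930. Without the array that stood apart the RPS6KA2 difference was 0.34 (adjusted p 0.0819).

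Among modulators of the Trk receptors, PTPRS, a receptor tyrosine phosphatase, averaged 1006 ± 372 in parvocellular and 589 ± 324 in magnocellular layers (log2 difference 0.89, limma adjusted p 0.00762). Once the GAPDH ratio was added to the fit, it was 0.57 (adjusted p 0.153). SLITRK5 and SLITRK1 are membrane proteins of neurons with domains like those of Trk receptors, and they moved apart. SLITRK5 was higher by 0.69 and SLITRK1 was lower by 0.54 in parvocellular layers (log2 difference -0.54), with limma adjusted p-values of 0.0225 and 0.0296. Over the alternatives other than omitted arrays, each animal alone included, SLITRK5 ranged between 0.21 and 1.16 and SLITRK1 between -0.65 and -0.42. The limma adjusted p reached 0.747 for SLITRK5 and 0.332 for SLITRK1. Without the array that stood apart the SLITRK5 difference was 0.54. The SLITRK5 call was lost without the nondeprived layer 1 of the ipsilateral LGN (0.0538), the deprived layer 2 of the ipsilateral LGN (0.0640) or the nondeprived layer 2 of the contralateral LGN (0.0663), all of the 2-month animal. The SLITRK1 call was lost without the ipsilateral nondeprived layer 1 of the 4-month animal (0.0628) or of the 2-month animal (0.0550), the contralateral nondeprived layer 2 of the 4-month animal (0.0794) or the contralateral deprived layer 1 of the 2-month animal (0.0798).

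Of the regulators of BDNF transcription, CREB1 was higher by 0.91 and MEF2A by 0.33 in parvocellular layers (limma adjusted p 0.0296 and 0.0492). Both encode transcription factors that are regulated by neuronal activity. The BDNF probe set MmuSTS.1378.1.S1_at had the lower signal in these layers, by a call that was not stable. A link between it and these genes was not tested. Over the alternatives other than omitted arrays, each animal alone included, the CREB1 difference ranged between 0.45 and 1.37. Its limma adjusted p reached 0.513. CREB1 lost its call when any of 6 arrays was left out, 5 of them magnocellular, with a difference of 0.66 and an adjusted p of 0.0829 without the deprived layer 2 that stood apart, and MEF2A when any of 19 was left out (up to 0.130). Without the array that stood apart the MEF2A difference was 0.28 (adjusted p 0.105). Among targets induced by neurotrophins, FOS, an immediate early gene, averaged 1207 ± 947 in parvocellular and 467 ± 133 in magnocellular layers (log2 difference 1.03, limma adjusted p 0.00112). The FOS difference was 0.46 in the 4-month animal alone (adjusted p 0.350) and 1.61 in the 2-month animal alone. NPTX2, a secreted pentraxin of synapses, was higher by 0.34 (adjusted p 0.0352), and its call was lost when any of 11 arrays was left out (up to 0.113). Without the array that stood apart the NPTX2 difference was 0.30 (adjusted p 0.0683). VGF, another such target, was not called (log2 difference 0.08).

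**Figure D5:**
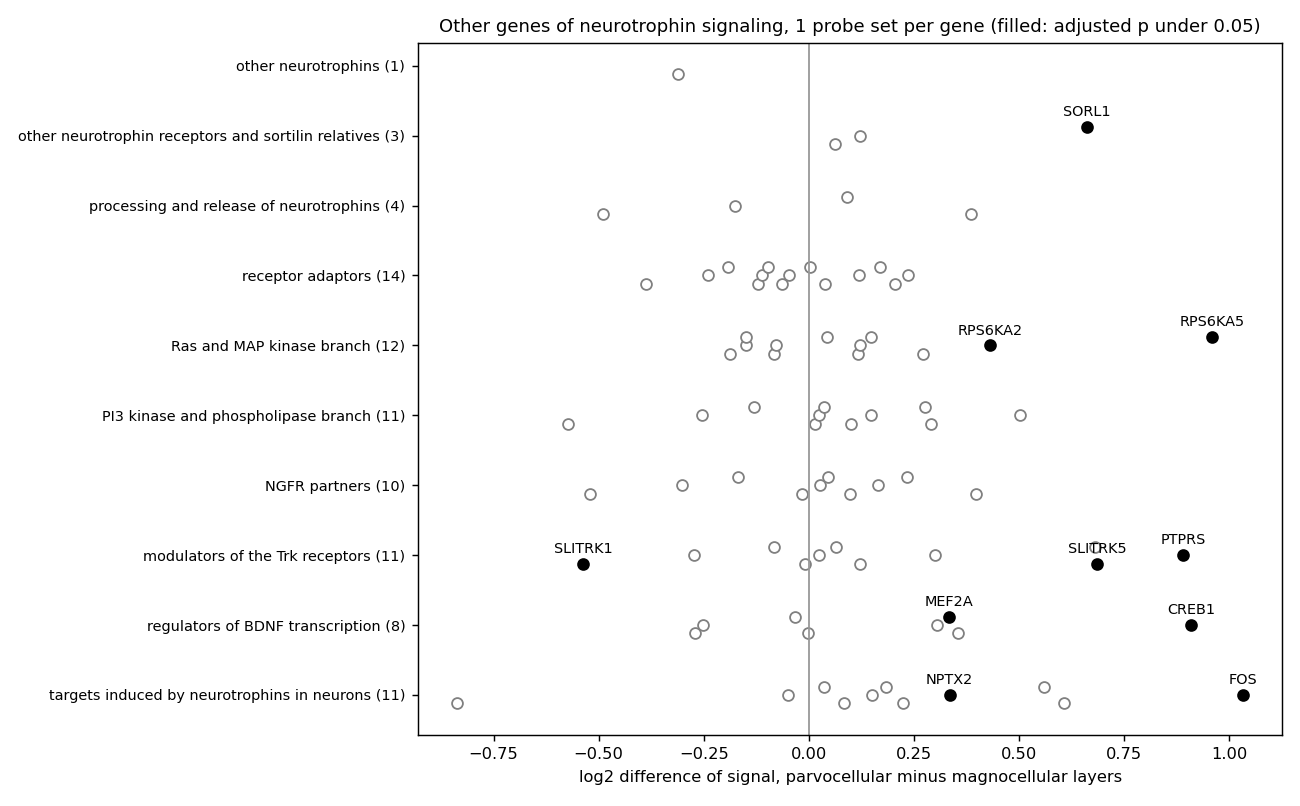
Log2 difference of signal between parvocellular and magnocellular layers for 85 other genes of neurotrophin signaling, grouped by role (number of genes in parentheses), 1 point per gene; filled and named points passed the limma adjusted p of 0.05. 9 named genes lie to the right of 0 and SLITRK1 lies to the left.

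Deprivation in parvocellular layers changed 1 of the 85 past the threshold, 1.18% beside 0.97% of all probe sets. When all probe sets of a gene were averaged, 2 were called (2.35%): GAB2, which has 1 probe set, and PIK3R1, a regulatory subunit of PI3 kinase (log2 difference 0.90, limma adjusted p 0.0109). The strongest of the 4 PIK3R1 probe sets alone differed by 0.39 (adjusted p 0.314). GAB2, an adaptor that links receptor kinases to PI3 kinase, had signals between 661 and 1294 in deprived and between 521 and 803 in nondeprived parvocellular layers. Its log2 difference was 0.64 (SE 0.12, limma adjusted p 0.0172), and with the layer number within an animal as a replicate block in place of the LGN its adjusted p was 0.0601. In magnocellular layers GAB2 had a log2 difference of 0.77 (limma adjusted p 0.836). The genes with the next lowest p in parvocellular layers were CREBBP, a coactivator of CREB (0.42, adjusted p 0.0635), SHC2, an adaptor (0.64, adjusted p 0.0959), LRIG1, a negative regulator of receptor kinases (0.52, adjusted p 0.0979), and SLITRK1 (-0.53, adjusted p 0.124). When their 2 probe sets were averaged, CREBBP had a difference of the opposite sign (-0.13, limma adjusted p 0.908). The average of SHC2 was 0.37 (limma adjusted p 0.586). SLITRK1 differed by -1.17 in magnocellular layers (unadjusted p 0.00271, adjusted p 0.836). FOS differed by -0.43 (adjusted p 0.291) in parvocellular layers, with both groups overlapping.

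A marker of another cell type moved with deprivation beside GAB2. GFAP, the intermediate filament of astrocytes, averaged 7563 ± 3633 in deprived and 3283 ± 596 in nondeprived parvocellular layers (SD, n = 8 each), a log2 difference of 1.07 (limma adjusted p 0.0184). The average of the 2 GFAP probe sets was not called (0.45, adjusted p 0.113). It was the single call among 5 measured astrocyte markers, whose sum ranged between 27905 and 61589 in deprived and between 28761 and 46235 in nondeprived parvocellular layers. Its part in the GAB2 difference was not tested.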

How the data were processed

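RNA of laser-captured layers was amplified by the authors in 2 rounds and hybridized to the Affymetrix Rhesus Macaque Genome Array. The deposited values are linear signal intensities that the authors computed with GCOS, scaling every array to the same mean, 500.04 after the highest and lowest 2% were trimmed. The number of arrays limits the precision.

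Of 52766 probe sets without controls, 24956 had 1 symbol in the platform annotation, 361 had several and 27449 had none. A probe set was tested if any of the 24 arrays had a signal of 100 or more (37623). Signals under 1 were set to 1, and log2 signals were fitted with limma 3.58.1 in R 4.3.3 (eBayes with trend, LGN as a fixed block, two-sided). P-values were adjusted by Benjamini-Hochberg over all probe sets, with a threshold of 0.05. The script was tested on simulated data. Alternatives were other scalings, floors, filters, moderation and blocks, each array left out, each animal alone and, chosen after seeing the data, the GAPDH ratio as a covariate.

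All member probe sets are described. Of the listed pathway genes, those past the threshold and those with the lowest p per role could be named. For likeness, the 3 highest correlations per member probe set with a mean of at least 100 are given. Members and lists were chosen with earlier results of these data known.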

Additional observations from a re-analysis of the deposited data

Results flagged for a closer look

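Of 40 groups of arrays examined, 6 held an array far from the others of its group. The nominal rate of about 1 in 20 groups holds for normally distributed values. Linear signals were examined here, so the 6 are not read as an excess. NTRK3 MmugDNA.29582.1.S1_at had a signal of 1158 in the contralateral deprived layer 1 of the 2-month animal, against at most 695 in the other deprived magnocellular layers. NTF3 had 142 in the contralateral deprived layer 4 of the 2-month animal, where the next deprived parvocellular layer had 72.9. BDNF MmugDNA.24032.1.S1_at had 114 in the contralateral deprived layer 1 of the 4-month animal (next value 23.97) and 79.6 in the contralateral deprived layer 6 of the 2-month animal (next value 16.1). BDNF MmugDNA.42959.1.S1_at had 157 in the ipsilateral deprived layer 2 of the 2-month animal (next value 29.4), which is the array that stood apart. The NGFR probe set that was not tested had 71.5 in the contralateral nondeprived layer 3 of the 2-month animal (next value 32.7).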

How the results depend on the processing

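Of 1651 values recomputed for 57 results, 1431 were kept, 150 were weaker and 70 changed sign, none of these a called value. For a log2 difference, kept means the same direction and side of the threshold, and weaker means a lost call. Some of the results are counts of called members, where kept means the same count and weaker a lower count. A lost call of a member can therefore enter also through the count of its comparison. The NTRK3 MmugDNA.33101.1.S1_s_at difference between classes was called in 36 of 36 alternatives (log2 difference 0.81 to 1.01, limma adjusted p 1.4e-05 to 0.0320). Of the 9 members, 2 were called between classes, and 1 when arrays were scaled to the same median, with a mean signal of 100 or more, without a filter, without a trend, without a block, in each animal alone and with the GAPDH ratio as a covariate, and between 1 and 2 when an array was left out. The lost call was BDNF MmuSTS.1378.1.S1_at (adjusted p 0.0799 with median scaling, 0.0549 without a filter, 0.0609 without a trend, 0.0822 without a block, 0.324 at 4 and 0.170 at 2 months alone); with the mean filter it was not tested. The call among 6 layers was 0 without a block and in each animal alone. With the layer number within an animal as a replicate block, 0 members were called for deprivation in either class. These numbers come from the layer labels, and this block was not run for the class difference or for differences between layers. It ended the call of GAB2, the single listed gene called for deprivation by its strongest probe set. That call was also lost with median scaling (limma adjusted p 0.240), without a trend (0.0847), without a block (0.0804) and in each animal alone (0.506 at 4 and 0.282 at 2 months). Over all probe sets, 1355 calls between classes became 789 with median scaling, 624 without a block, and 368 and 222 at 4 and 2 months alone. The 365 calls for deprivation in parvocellular layers became 25, 28, 1 and 7 under the same settings, 15 without a trend, 596 with the mean filter, 133 with the replicate block and between 136 and 457 with an array left out. The 285 calls among 6 layers became 162, 91, 35 and 670 under the same first 4 settings and 128 without a trend. Median scaling moved the median of all probe sets for deprivation in magnocellular layers to -0.15 and quantile normalization to -0.01, against 0.13 as reported.

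Signs of values that were not called changed as follows, on the log2 scale; the cause was not tested. For deprivation in parvocellular layers, at 2 months alone: NGFR MmugDNA.11249.1.S1_at -0.0352, NTF3 -0.26, BDNF MmugDNA.24032.1.S1_at 0.28 and NTRK3 MmugDNA.24910.1.S1_at -0.18; at 4 months alone BDNF MmuSTS.1378.1.S1_at 0.66; with the GAPDH ratio NTF3 -0.0647, NTRK3 MmugDNA.33101.1.S1_s_at 0.0535 and BDNF MmuSTS.1378.1.S1_at 0.0830. For deprivation in magnocellular layers, with quantile normalization NTF3 -0.0734 and NTRK3 MmugDNA.17854.1.S1_at -0.15; with median scaling NTF3 -0.10, NTRK3 MmugDNA.17854.1.S1_at -0.14, NTRK3 MmugDNA.29582.1.S1_at -0.0657 and BDNF MmuSTS.1378.1.S1_at -0.0488; with signals under 50 set to 50 BDNF MmugDNA.24032.1.S1_at 0.0324; at 4 months alone NTF3 -1.19, BDNF MmugDNA.24032.1.S1_at 0.12, NTRK3 MmugDNA.29582.1.S1_at -0.0506 and BDNF MmuSTS.1378.1.S1_at -0.35; with the GAPDH ratio NTF3 -0.51 and BDNF MmuSTS.1378.1.S1_at -0.22. Between classes NTRK3 MmugDNA.24910.1.S1_at was 0.0751 with quantile normalization, 0.0570 with median scaling, 0.0108 with an offset of 16, 0.0659 with the floor of 50 and 0.56 at 2 months alone, and BDNF MmugDNA.42959.1.S1_at was 0.0397 at 4 months alone and 0.0427 with the GAPDH ratio. At 4 months alone the class difference of the BDNF MmuSTS.1378.1.S1_at effect was 1.01, and outer minus inner layers was -0.22 for it and -0.0755 for NTRK3 MmugDNA.33101.1.S1_s_at. Layer 1 minus layer 2 of BDNF MmuSTS.1378.1.S1_at was 0.61 with the GAPDH ratio, and the duration difference of NTRK3 MmugDNA.33101.1.S1_s_at in parvocellular layers was -0.0425 with quantile normalization.

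With an array left out, deprivation in parvocellular layers ranged between -0.14 and 0.00302 (NTRK3 MmugDNA.33101.1.S1_s_at), -0.57 and 0.0333 (BDNF MmuSTS.1378.1.S1_at), -0.19 and 0.00445 (NTRK3 MmugDNA.29582.1.S1_at), -0.0799 and 0.43 (NTF3) and -0.17 and 0.69 (NTRK3 MmugDNA.24910.1.S1_at). In magnocellular layers it ranged between -0.82 and 1.13 (NTF3), -0.16 and 0.43 (NTRK3 MmugDNA.17854.1.S1_at), -0.32 and 0.50 (BDNF MmuSTS.1378.1.S1_at), -1.35 and 0.14 (BDNF MmugDNA.24032.1.S1_at) and -0.35 and 0.0126 (NTRK3 MmugDNA.33101.1.S1_s_at). The class difference of NTRK3 MmugDNA.24910.1.S1_at ranged between -0.31 and 0.23, the layer 1 minus layer 2 difference of BDNF MmuSTS.1378.1.S1_at between -1.06 and 0.18, and for NTRK3 MmugDNA.33101.1.S1_s_at the difference of the effect between classes between -0.0515 and 0.22, outer minus inner layers between -0.00463 and 0.13, and the duration difference between -0.12 and 0.20 in parvocellular and between -0.42 and 0.68 in magnocellular layers.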
